A study of Mus musculus with 10 samples.

Results

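The genes described here are the core of cardiac calcium cycling: Atp2a2, Pln, Sln, Ryr2, Casq2, Trdn, Jph2, Slc8a1, Cacna1c and Fkbp1b. They were taken by name, with earlier results of these data known. All probes of the array that carry the symbol of one of these 10 genes were members, which gave 14 probes out of 26423 (10 of 19942 gene symbols), with 3 probes for Atp2a2, 3 for Trdn and 1 for each of the other genes. All 14 passed the filter on low intensity, as did 19976 probes of the whole array. The samples were left ventricles of male C57BL/6J mice that were 8 weeks old and weighed 20 to 25 g at surgery. They were collected on day 3, 5, 7, 14 or 28 following transverse aortic banding (TAB, a surgical narrowing of the aortic arch that loads the left ventricle with pressure) or after a sham operation. The mice were therefore older on later days. There was 1 sample for each operation and day, 5 TAB and 5 sham samples in all, and how many mice each sample held was not stated in the sources used here. The sample labelled TAB day 14 in its title carries a condition label of 15 days and was used as day 14. No group carried a transgene, a deletion or a drug, and both operations shared the strain, sex and age at surgery.

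In a heart muscle cell each beat begins when the L-type calcium channel, whose pore is made by Cacna1c, lets a little calcium enter. That calcium opens the ryanodine receptor Ryr2, and a much larger amount leaves the sarcoplasmic reticulum (SR), the internal calcium store. Relaxation follows when the pump SERCA2, made by Atp2a2, returns calcium to the store and the sodium-calcium exchanger, made by Slc8a1, moves the rest out of the cell. Reduced SERCA2 and slowed relaxation are well-known features of the overloaded heart in general.

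The DNA just upstream of the start of transcription is shown for the 3 members that had a single start listed in RefSeq and a probe detected on every array, so that their upstream bases can be set beside the values that follow. RefSeq promoter windows of mouse build GRCm38.p6 were given for 7 of the 10 genes, in 10 windows. Each line holds the 150 bases before the listed start, 5′ to 3′ on the strand of the gene, for Pln at chr10:53337536-53337685 (plus strand), Casq2 at chr3:102086265-102086414 (plus strand) and Ryr2 at chr13:12106946-12107095 (minus strand). Capitals mark a match to a searched motif.
Pln: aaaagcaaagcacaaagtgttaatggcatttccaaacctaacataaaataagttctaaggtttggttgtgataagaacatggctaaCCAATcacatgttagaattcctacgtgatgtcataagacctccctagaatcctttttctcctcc
Casq2: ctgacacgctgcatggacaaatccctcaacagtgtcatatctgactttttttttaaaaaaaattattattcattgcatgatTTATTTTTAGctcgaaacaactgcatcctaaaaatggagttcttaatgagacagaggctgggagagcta
Ryr2: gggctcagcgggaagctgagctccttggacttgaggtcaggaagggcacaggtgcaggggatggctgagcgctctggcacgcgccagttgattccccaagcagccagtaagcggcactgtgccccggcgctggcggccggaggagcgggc
The motifs were searched on both strands. They were the TATA box written as TATAAA, the CCAAT box, the GATA site written as AGATAA, an E-box written as CAGCTG, the MEF2 site and the CArG box, and no matches in these windows overlapped. The Pln window held a CCAAT box 64 to 60 bases before the start, a motif found in 24.5% of 32851 promoter windows of the same length. The Casq2 window held a MEF2 site 69 to 60 bases before the start, which 1.67% of the windows hold. The Ryr2 window held none of the 6 motifs. Of the windows not printed, those of Jph2 held a CCAAT box and the E-box (8.39% of all windows), that of Slc8a1 held the GATA site (5.65%), and 1 of the 3 windows of Cacna1c held a CCAAT box. The TATA box (7.57% of all windows) and the CArG box (0.916%) were in none of the member windows. A match is a description of the letters only.

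Lower values in TAB hearts were the common direction among these genes. Of the 14 probes 13 had a mean log2 TAB/sham ratio below 0, and the median of the 14 was -0.36, while 54.5% of all tested probes were below 0 and their median was -0.05. The 13 include Slc8a1 at -0.02 and a Trdn probe at -0.04, which turned to 0.02 and 0.03 with median scaling alone. The 14 count Atp2a2 and Trdn 3 times each. The genes were chosen with earlier results of these data known, so this contrast is a description only. In the limma fit across all 19976 probes, which blocked on the day and adjusted by Benjamini-Hochberg, 3 of the 14 probes passed an adjusted p of 0.05. All 3 were lower in TAB, 2 of them for Atp2a2 and 1 for Trdn, and over all probes 6.73% were called lower and 7.47% higher. The 1492 higher and 1344 lower calls made 52.6% of all calls higher, a share that became 66.4% with median scaling alone, 65.5% with quantile normalization within each operation and 66.9% after centring on cardiomyocyte markers. All 5 TAB values lay below all 5 sham values for 4 of the 14 probes (the 3 probes of Atp2a2 and 1 of Trdn), against 7.59% of all probes, and for 0 of the 14 they lay above, against 8.78% of all probes. The days stand in as replicates in this fit, so its p-values measure how much the TAB/sham ratio varied over 5 days and not the spread between animals. The calls depended on which days were in the fit. With the samples of day 3, 5, 7 or 14 left out no member passed, and without day 28 only the Trdn probe did. Calls over all probes fell as well. Without day 3, 5, 7 or 14 they ranged from 0.0651% to 0.631% higher and from 0% to 0.29% lower. Without day 28 they were 7.28% and 6.6%.

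Signal strength divided the members. Each deposited spot carried a detection p-value, and a probe was taken as above background in an operation when that p was under 0.05 on at least 1 of its 5 arrays. By this measure 10 of the 14 probes were above background in both operations. The others were the third Atp2a2 probe and the third Trdn probe, both above background only on the arrays of sham days 7 and 28, and the single probes of Slc8a1 and Fkbp1b, on no array. Those 2 sham arrays had a lower limit of detection than the rest. On them 10180 and 10009 kept probes were above background, down to normalized intensities of 98.2 and 103, against 4945 to 6191 probes and limits of 275 to 393 on the other 8. Detection in sham alone for the third Atp2a2 and Trdn probes is therefore not read as a difference between the operations. Without counting these 2 arrays, an alternative chosen after seeing the data, the number of member probes above background in both operations was again 10. No size of change is read from the 4 probes not above background in an operation, here or where their values are printed. Of the 10 probes above background 9 had a mean ratio below 0, with a median of -0.36, and 2 were called, both lower. Over the 6481 probes of the array that met the same rule 49.6% were below 0, the median was 0.00, and 8.01% were called lower and 11.3% higher.

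**Figure D1:**
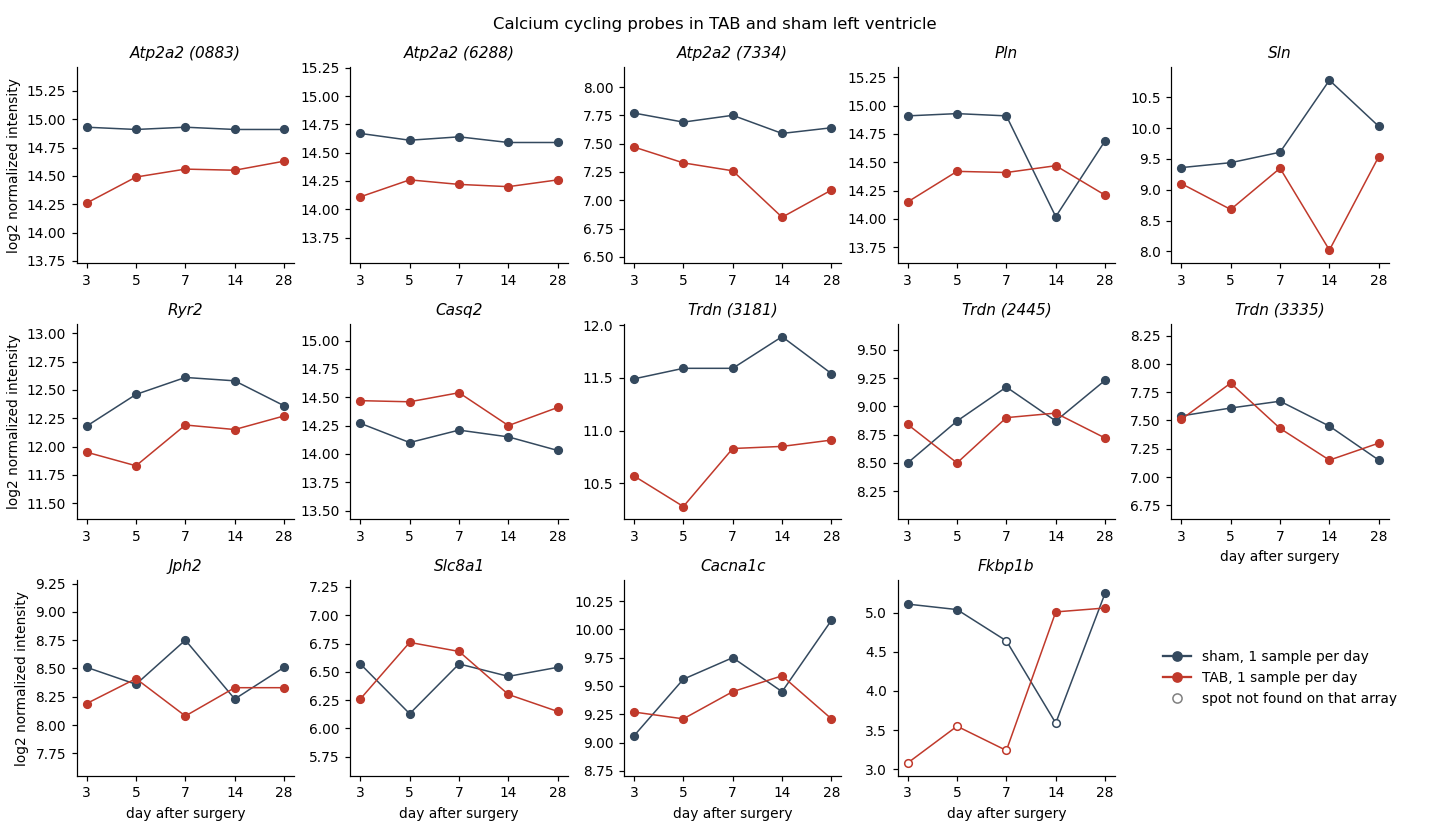
Log2 normalized intensity (y axis, a range of its own in each panel) of the 14 probes on each day after surgery (x axis), with 1 TAB sample (red) and 1 sham sample (dark) per day. Digits in parentheses are the last 4 of the probe name and open circles are spots not found on that array. In these quantile-normalized values the TAB line runs below the sham line on all 5 days for Atp2a2, Sln, Ryr2 and the first Trdn probe, and above it on all 5 days for Casq2.

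Atp2a2 makes SERCA2, the pump that refills the SR. Its first bright probe, mMR030883, read 19597, 23063, 24142, 24014 and 25280 (normalized intensity) in TAB on days 3, 5, 7, 14 and 28, and 31165, 30723, 31165, 30723 and 30723 in sham. Its other bright probe, PH_mM_0016288, read 17695, 19597, 19141, 18783 and 19597 in TAB and 26155, 24965, 25456, 24731 and 24731 in sham. With either probe each TAB value was below every sham value, and TAB day 3 was the lowest of the 10. The sham values repeat because quantile normalization gives a probe the value of its rank, and the first probe ranked 32nd or 33rd from the brightest on every sham array. With each array scaled to a common median only, that probe spanned 27812 to 33820 in sham and 20210 to 24796 in TAB, and the groups still did not overlap.

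The mean log2 TAB/sham ratio was -0.42 (SE 0.11, n = 5 days, limma adjusted p = 0.0514) for mMR030883, which missed the threshold. PH_mM_0016288 fell by 0.41 on the log2 scale (SE 0.10, limma adjusted p = 0.0446), or 24.8% lower in TAB with a 95% interval of 11.3% to 36.3%. Of the daily ratios of the first probe, -0.67, -0.41, -0.37, -0.36 and -0.28 from day 3 to day 28, the one furthest from 0 was on day 3, and for the second probe they ran from -0.56 on day 3 to -0.34 on day 28. The third probe, PH_mM_0007334, was dim. It read 178, 160, 153, 115 and 137 in TAB and 218, 206, 215, 192 and 200 in sham, again without overlap, and passed the test (limma adjusted p = 0.0413), but no TAB array measured it above background. Its call was lost with median scaling alone (adjusted p = 0.0669), with quantile normalization within each operation (0.0594) and with probes below 1 set to 1 (0.0891). The first probe passed under 8 of 10 other settings. The second ranged from -0.43 to -0.37 and passed under 8 of 10, its call being lost with probes below 1 set to 1 (adjusted p = 0.0951) and after centring on cardiomyocyte markers (0.0684). Leaving out any single day kept all 3 probes below 0, the first between -0.45 and -0.35 and the second between -0.43 and -0.37, with adjusted p from 0.0652 to 0.136 over both.

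Phospholamban, made by Pln, is a small membrane protein that holds SERCA2 back until it is phosphorylated. Pln read 18132, 21908, 21709, 22760 and 19001 in TAB, and 30723, 31165, 30723, 16609 and 26426 in sham. The TAB sample was the lower on days 3, 5, 7 and 28, with log2 ratios of -0.76, -0.51, -0.50 and -0.48. On day 14 the order was the opposite, with a ratio of 0.45, because the sham sample of that day was the lowest of all 10. That spot had a raw intensity of 16408 against 29446 to 32162 on the other sham arrays and a detection p of 0.0121, higher than on any other array for this probe. The mean ratio was -0.36 (SE 0.19, limma adjusted p = 0.245). Without day 14 it was -0.56 and the adjusted p was 0.0645, so neither version passed.

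Sarcolipin, made by Sln, restrains SERCA in a similar way and is known in mice as a gene of the atria. Sln read 549, 411, 654, 260 and 746 in TAB and 657, 697, 781, 1761 and 1045 in sham. TAB was the lower on every day, and 4 of 5 TAB values were below the lowest sham value, with TAB day 28 inside the sham range. The mean log2 ratio was -0.90 (SE 0.39, limma adjusted p = 0.164), with daily ratios of -0.26, -0.76, -0.26, -2.76 and -0.49. The TAB spot of day 14 had a detection p of 0.138 and lay below 334, the lowest value above background on that array, so the ratio of that day is not a measured size and the mean leans on it. Day 14 stood apart on both sides, with the lowest TAB and the highest sham value, and without it the mean was -0.44.

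Atrial markers were looked at beside Sln, since a ventricle sample can hold different amounts of atrium. Myl7, the atrial regulatory light chain, had log2 ratios of -0.23, -0.60, -0.50, -2.24 and -0.49, a mean of -0.81 that did not pass (limma adjusted p = 0.121), although all 5 TAB values lay below all 5 sham values. On day 14 it read 818 in TAB and 3862 in sham, the lowest and the highest of its 10 values, as for Sln. Myl4, the atrial essential light chain, read 1477 in TAB and 4350 in sham on that day, also its lowest and highest values (log2 ratio -1.56), and its mean ratio of -0.40 did not pass (limma adjusted p = 0.343). The other atrial markers did not all share this pattern. Dkk3 was higher in TAB on every day, 1660 against 1214 on day 14 (log2 ratio 0.45), with a mean ratio of 0.59 (limma adjusted p = 0.0543). Nr2f2, not above background on any TAB array, read 290 in TAB and 178 in sham on day 14, and Nr2f1, on no array above background, read 65.8 and 94.1. Nppa, atrial natriuretic peptide, which is also made by the overloaded ventricle, rose 3.49-fold (log2 1.81, SE 0.19, limma adjusted p = 0.0143). In sham hearts its highest value, 16119, was again on day 14, against 6794 to 9044 on the other days. Of the 7 atrial probes 1 was called higher and 0 lower, their median was -0.19 (daily medians 0.17, 0.11, -0.38, -0.52 and 0.24), and their summed level spanned log2 14.99 to 15.34 in TAB and 13.47 to 14.66 in sham, a sum that Nppa leads. The 4 atrial probes above background in both operations had a median of 0.09, with 2 of them below 0. Bmp10, a defining atrial gene, was found on 3 of 10 arrays and above background on 0. The part of the atrial share in the Sln values was not tested. In tissue RNA of this kind fewer cells of a type and less RNA per cell cannot be told apart.

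**Figure D2:**
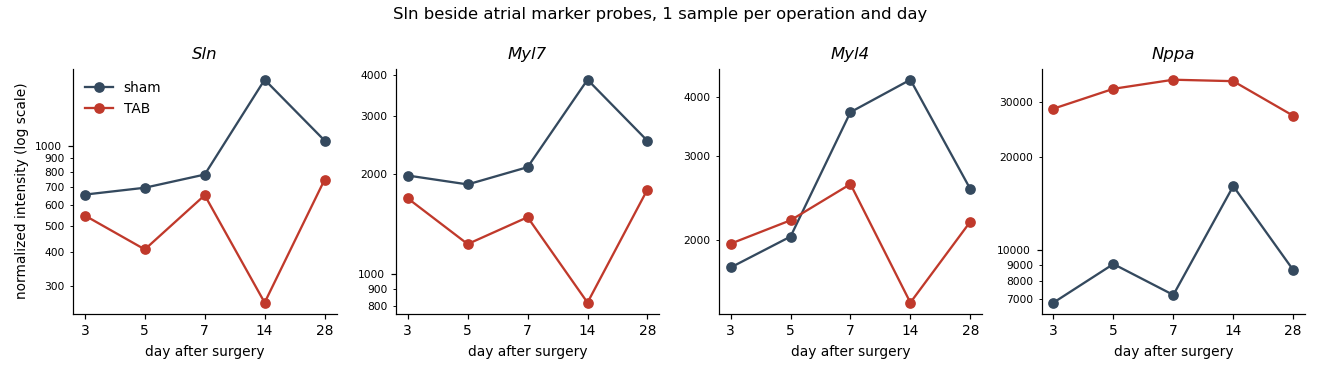
Normalized intensity on a log scale (y axis, a range of its own in each panel) of Sln and of the atrial marker probes of Myl7, Myl4 and Nppa by day after surgery (x axis), 1 sample per operation and day. On day 14 Sln, Myl7 and Myl4 each had their highest value in sham and their lowest in TAB, while Nppa was higher in TAB on every day. The Sln spot of TAB day 14 was not above background.

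Release from the store runs through Ryr2, the calcium release channel. Its probe read 3966, 3653, 4658, 4548 and 4923 in TAB and 4647, 5633, 6239, 6136 and 5241 in sham. TAB was the lower on each day, but TAB days 7 and 28 lay inside the sham range. With each array scaled to a common median only, the order on day 3 turned, with 4213 in TAB and 4101 in sham. The mean log2 ratio was -0.36 (SE 0.12, 95% interval -0.65 to -0.07, limma adjusted p = 0.0906), and day 28 had the ratio nearest to 0, -0.09. It passed under 4 of 12 other settings, with an adjusted p of 0.024 at the lowest.

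Casq2, cardiac calsequestrin, is the protein that binds calcium inside the SR next to the release channel. Casq2 had the only mean ratio above 0 among the members. It read 22760, 22490, 23834, 19518 and 21709 in TAB and 19784, 17516, 19001, 18240 and 16728 in sham, TAB being higher on all 5 days and 4 of 5 TAB values lying above the highest sham value. The mean log2 ratio was 0.27 (SE 0.10, 95% interval 0.02 to 0.52, limma adjusted p = 0.12), which did not pass. With 50 added before the logarithm, and with the trend and robust options of limma, the adjusted p was 0.0285.

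Triadin, made by Trdn, ties calsequestrin to Ryr2, and its 3 probes differed. PH_mM_0013181 read 1515, 1245, 1818, 1852 and 1925 in TAB and 2880, 3088, 3072, 3785 and 2979 in sham. The highest TAB value was below the lowest sham value by a wide margin. This probe fell by 0.93 on the log2 scale (SE 0.13, limma adjusted p = 0.0196), or 47.5% lower in TAB with a 95% interval of 34.5% to 58.0%. Its daily ratios were -0.93, -1.31, -0.76, -1.03 and -0.63. It passed under 10 of 11 other settings. With a single day left out its mean stayed between -1.01 and -0.84 with adjusted p from 0.0228 to 0.0797.

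The other Trdn probes did not follow it. PH_mM_0002445 read 458, 363, 477, 490 and 421 in TAB and 363, 469, 577, 468 and 600 in sham. These groups overlapped, and TAB was the higher on days 3 and 14 (mean log2 ratio -0.15, SE 0.16, 95% interval -0.53 to 0.23, limma adjusted p = 0.538). PH_mM_0013335, not above background on any TAB array, read 142 to 228 in TAB and 142 to 204 in sham (limma adjusted p = 0.848). Trdn has several splice forms, and which of them each probe matches was not given in the sources used here. Averaging the 3 probes gave a log2 ratio of -0.37, which still passed. That average contains the called probe, and also PH_mM_0013335, from which no size is read, so it is no separate support.

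Jph2, junctophilin, holds the SR membrane close to the surface membrane at the release sites. It read 291, 340, 270, 323 and 321 in TAB and 365, 329, 431, 299 and 364 in sham. The probe was above background on 2 TAB and 3 sham arrays. The groups overlapped and TAB was the higher on days 5 and 14 (mean log2 ratio -0.21, SE 0.15, 95% interval -0.56 to 0.15, limma adjusted p = 0.374). Fkbp1b, the small protein FKBP12.6 that binds Ryr2, was near the floor of the array. It read 8.48, 11.8, 9.44, 32.3 and 33.3 in TAB and 34.5, 32.9, 24.9, 12 and 38.0 in sham, was found on 2 TAB and 3 sham arrays, and had no detection p below 0.852. The low values were on TAB days 3, 5 and 7 and on sham day 14, where the spot was not found. No difference was read from this probe (limma adjusted p = 0.357).

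The member genes of entry and exit across the surface membrane, Cacna1c and Slc8a1, had no call. Cacna1c read 618, 593, 700, 770 and 592 in TAB and 532, 757, 859, 701 and 1084 in sham. All TAB values lay inside the sham range (mean log2 ratio -0.23, SE 0.18, 95% interval -0.68 to 0.21, limma adjusted p = 0.417), and the daily ratio furthest from 0 was -0.87 on day 28, where the sham value was its highest. Slc8a1, the exchanger, read 76.9, 108, 103, 78.8 and 71.1 in TAB and 95.03, 69.8, 94.9, 88.2 and 93.1 in sham. Its detection p was 0.0574 at the lowest, so a change of the exchanger was not measurable with this probe (limma adjusted p = 0.947).

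**Figure D3:**
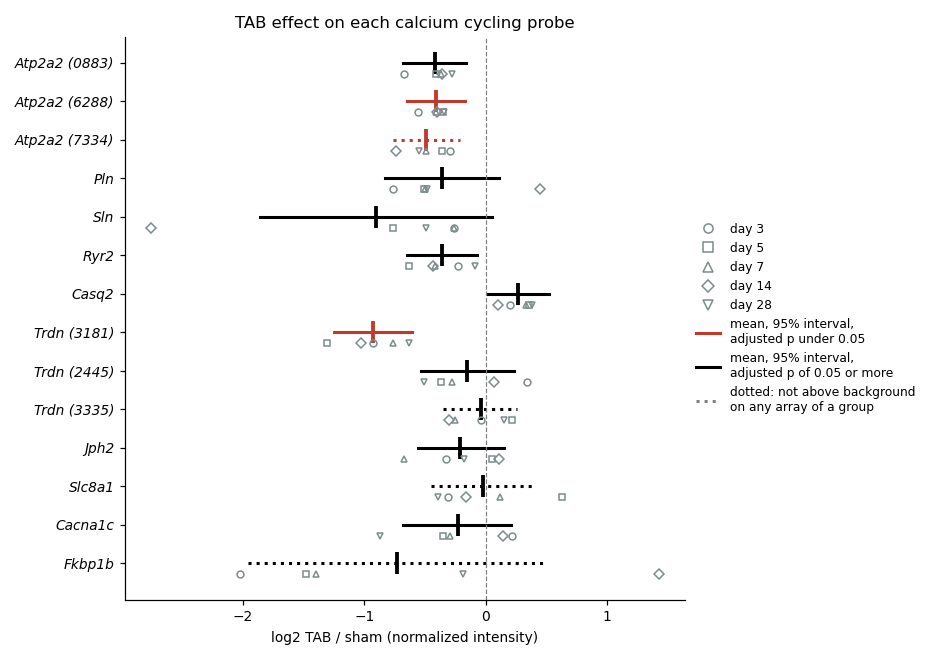
Mean log2 TAB/sham ratio over the 5 days (vertical ticks) with its 95% interval from limma (lines) and the ratio of each day (open symbols) for the 14 probes. Red marks the 3 probes with an adjusted p under 0.05 and dotted lines the 4 probes not above background on any array of at least 1 operation, whose size is not interpreted. Day 14 is the symbol far to the left for Sln and to the right of 0 for Pln.

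Did the TAB effect differ between the early days (3, 5 and 7) and the late days (14 and 28)? No member passed that test in limma, nor did any of the 19976 probes (0% called, 2086 at an unadjusted p under 0.05, lowest adjusted p 0.227). For the first bright Atp2a2 probe the mean ratio was -0.48 early and -0.32 late, a difference of 0.17 (95% interval -0.36 to 0.69). For the first Trdn probe it was -1.0 early and -0.83 late (difference 0.17, 95% interval -0.53 to 0.86), and for Casq2 0.30 and 0.24 (difference -0.06, 95% interval -0.58 to 0.46). Each interval holds 0. Those of Atp2a2 and Casq2 reach differences larger than the mean ratio itself, and that of the Trdn probe reaches 0.86 against a mean ratio of -0.93. The difference furthest from 0 was that of Fkbp1b (limma adjusted p = 0.425), a probe not above background.

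By the rule of the study's methods, a log2 ratio more than 2 SDs of all ratios of the day from 0, members were called on a single day 2 times: Fkbp1b on day 3, a probe not above background, and Sln on day 14, where the TAB spot was not above background. The rule called 5.4%, 5.46%, 5.49%, 5.66% and 5.91% of all probes on days 3, 5, 7, 14 and 28, and its threshold lay between log2 1.38 and 1.87. Neither Atp2a2 nor Trdn crossed it on any day. A log2 ratio of at least 1 in either direction was reached 7 times, against 16.1% of all probes and days. Of the 7, 4 were of Fkbp1b, 1 was the day 14 value of Sln and 2 were of the first Trdn probe. With 1 sample per operation and day these single-day calls have no replicate check.

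Pln and Atp2a2 were set against each other because the balance of inhibitor and pump sets how strongly SERCA2 is restrained. The log2 ratio of Pln minus that of Atp2a2 (probe mMR030883) was -0.09, -0.09, -0.13, 0.81 and -0.19 on days 3 to 28, with a mean of 0.06 and an SD of 0.42. Day 14 was singled out after its value was seen. On the other 4 days the mean was -0.13 with an SD of 0.05, and each difference was below 0. There Pln was lower in TAB by a slightly larger factor than Atp2a2, though the mean ratio of Pln did not pass with or without day 14. For Sln minus Atp2a2 the difference was 0.41, -0.35, 0.11, -2.40 and -0.20 (mean -0.49, SD 1.11), of which the day 14 value is not a measured size, and without day 14 the mean was -0.01. Slc8a1 against Atp2a2 and Fkbp1b against Ryr2 rest on a probe not above background, and their differences were not read.

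**Figure D4:**
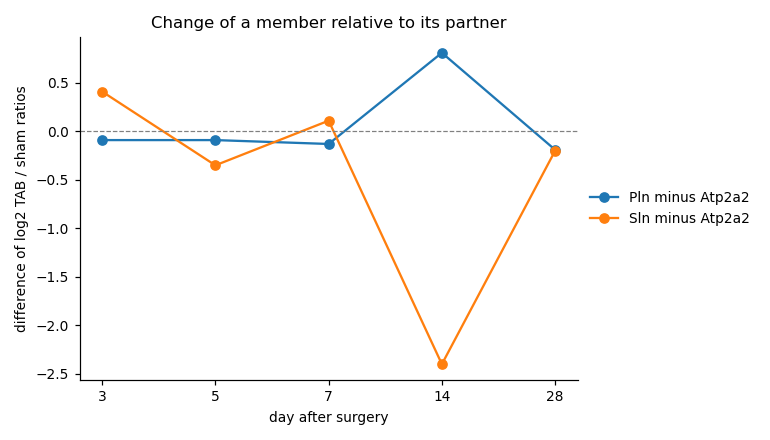
Difference between the log2 TAB/sham ratio of Pln or Sln and that of Atp2a2 (y axis) by day after surgery (x axis), 1 value per day. Pln minus Atp2a2 lies between -0.19 and -0.09 on 4 days and at 0.81 on day 14, and Sln minus Atp2a2 at -2.40 on day 14, where the Sln spot of the TAB sample was not above background.

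Genes that mark the cell types of the heart were read beside the members. Of the 15 cardiomyocyte probes (contractile genes, myoglobin and the muscle creatine kinase Ckm) 0 were called higher and 1 lower, their median was -0.07, and their summed level spanned log2 18.56 to 18.68 in TAB and 18.63 to 18.72 in sham. The Myl2 probe in that sum was at the ceiling of the scanner on 9 of 10 arrays, and without it the sums spanned 18.29 to 18.43 and 18.37 to 18.49. The called probe was the dimmer of the 2 for Mb, myoglobin, not above background on any TAB array (limma adjusted p = 0.0265), while the other had a ratio of -0.04. Single markers varied about as much as Atp2a2 without passing, chosen here after their values were seen: Tnni3 had a mean ratio of -0.44 (limma adjusted p = 0.0646) and was lower on all 5 days, Ckm had one of -0.36 (adjusted p = 0.159) and the Tpm1 probe PH_mM_0003132 one of 0.49 (adjusted p = 0.0792). Leukocyte probes were all higher, 5 of 5 called (median 1.26, summed level log2 10.90 to 12.27 in TAB and 10.17 to 10.55 in sham), among them Cd68 at 4.02-fold, Emr1 at 2.73-fold, Itgam at 2.40-fold and Ptprc at 2.39-fold. Cd68 and Emr1 were above background on 5 TAB and 2 sham arrays, and Itgam and Ptprc on 1 of each, so these folds rest largely on values below the limit of detection, while Csf1r, above background on all 10 arrays, was 1.81-fold higher. Of the 5 fibroblast probes 3 were called higher and 0 lower (median 0.59, summed level 15.82 to 16.28 in TAB and 15.50 to 15.63 in sham), with Postn at 10.4-fold and Lum at 1.51-fold on probes above background on all arrays, and Col1a2 at 11.2-fold on a probe above background on only 2 sham arrays. Of the 7 endothelial probes 0 passed (median 0.11), with Cdh5 at log2 0.34 and Tek at 0.07. Of the 3 smooth muscle probes 1 was called higher, at a spot found on 4 arrays (median 0.53), with Myh11 at -0.11 and Acta2, above background on 3 arrays of each operation, at 0.53. For skeletal muscle 1 of 7 probes was called higher, Acta1, which is also a gene of the stressed ventricle (3.39-fold), and 0 lower (median 0.09), while the probes of the fast myosins Myh4, Myh2 and Myh1 and of Mylpf did not pass the intensity filter. Centring each array on 14 cardiomyocyte probes, an alternative chosen after seeing the data, left the ratios close to those above: -0.38 and -0.37 for the bright Atp2a2 probes (adjusted p = 0.085 and 0.0684), -0.89 for the first Trdn probe (adjusted p = 0.0244) and 0.31 for Casq2. Beyond that, the part of these cell type differences in the member values was not tested.

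The wider calcium machinery was described by 6 lists, with 75 kept probes for 63 genes. In all 4 were called higher and 4 lower, while over all probes 7.47% were called higher and 6.73% lower. The median was 0.03, against -0.36 for the 14 member probes, and members and lists were both chosen with earlier results known. Above background in both operations were 28 of the 75, with 3 called higher, 1 lower and a median of 0.07. Of all probes above background in both operations 11.3% were called higher and 8.01% lower. Among SR uptake and store genes 0 of 12 probes passed (3 at an unadjusted p under 0.05, median 0.04). The brightest were Srl, sarcalumenin (log2 ratio 0.24, limma adjusted p = 0.187), and S100a1, a calcium sensor that binds SERCA2 and Ryr2 (-0.01, adjusted p = 0.954). Others of the list pointed the other way, chosen here after their values were seen. Hrc, a calcium-binding protein of the SR, had a mean ratio of -0.74 (limma adjusted p = 0.0516), with daily ratios of -0.68, -1.21, -1.22, -0.35 and -0.24, and Tmem38a, a potassium channel of the SR, one of -0.34 (adjusted p = 0.103) and a ratio below 0 on all 5 days.

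Among 20 probes of the release units 2 were called higher and 0 lower (median 0.00). Bin1, which shapes the T-tubule, read 429 to 633 in TAB and 254 to 316 in sham, without overlap, and rose 1.89-fold (limma adjusted p = 0.0239), though only 2 of its 5 sham values were above background. Fkbp1a, the FKBP12 relative of Fkbp1b, read 4166 to 5300 in TAB and 3160 to 3695 in sham, and rose 1.39-fold (limma adjusted p = 0.0431).

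For the L-type channel subunits and inhibitors 1 of 16 probes was called higher and 3 lower (median -0.01), none of the 4 above background in both operations. Cacnb2, a subunit that carries the pore to the membrane, was among the lower calls at 166 to 283 in TAB and 267 to 409 in sham (limma adjusted p = 0.0312), and the probe of Cacnb1 found on all arrays was also called lower (adjusted p = 0.0421). The list's higher call was the other Cacnb1 probe (adjusted p = 0.0404), found on 9 arrays and above background on none. Among 10 extrusion probes 0 were called higher and 1 lower (median -0.04). That was Atp2b4, a plasma membrane calcium pump, at 315 to 495 in TAB and 514 to 759 in sham, which fell by 0.70 on the log2 scale (SE 0.14, limma adjusted p = 0.0346) and was above background on 3 TAB and 5 sham arrays, while its other probe was above background on no TAB array. Slc8a2, another sodium-calcium exchanger, above background on all 10 arrays and chosen after its values were seen, read 1204 to 1712 in TAB and 1719 to 2662 in sham, without overlap, and just missed the threshold (mean log2 ratio -0.47, limma adjusted p = 0.0504).

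Store-operated entry had 0 of 8 probes called (2 at an unadjusted p under 0.05, median 0.27), but only 1 of the 8 was above background in both operations, the brighter probe of Stim1, the store sensor, at -0.25. Orai3, the next brightest, was above background on no TAB array. In mitochondrial uptake 1 of 9 probes was called higher and 0 lower (median 0.09). It was Ccdc109b, now named Mcub, a subunit that dampens the mitochondrial uniporter, which read 546, 619, 605, 317 and 204 in TAB and 154, 158, 162, 119 and 133 in sham. It rose 2.92-fold (SE 0.22 on the log2 scale, limma adjusted p = 0.0201). The probe was above background on 3 TAB and 2 sham arrays, so the size of this fold is uncertain.

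**Figure D5:**
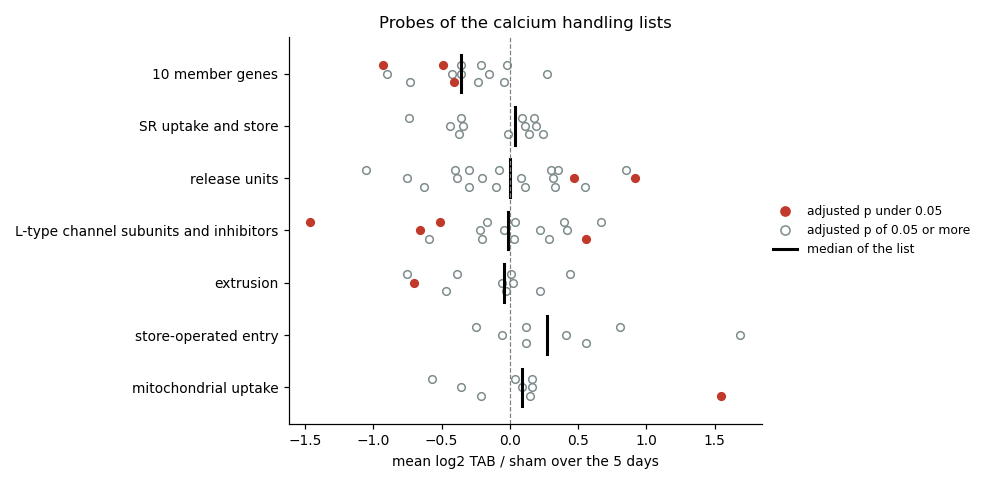
Mean log2 TAB/sham ratio over the 5 days (x axis) of every kept probe of the 10 member genes and of the 6 lists of other calcium handling genes (rows), with red points for an adjusted p under 0.05 and a black bar at the median. The bar of the members is at -0.36 and those of the lists between -0.04 and 0.27, with 28 of the 75 list probes above background in both operations.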

How the data were processed

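Left ventricle RNA of 5 TAB and 5 sham samples was labelled with Cy5 and hybridized to Mouse Whole Genome OneArray v2 arrays of 60-base probes. The authors scanned the slides, read the spots with GenePix 4.1 and deposited a table of raw intensity, detection p-value and flag for each probe and sample. Whether that intensity was background-subtracted and how the detection p-value was computed were not given in the sources used here. The deposited flag is 0 or -50, and -50 was read as spot not found. Raw medians were 34 to 57 and 52.7% to 59.8% of spots were found per array, 1 to 3 spots per array reached 65000, and no member did (highest raw value 37737). The number of arrays limits the precision.

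As in the study's methods, arrays were scaled to a common median, probes under 1 in any sample removed (6447), and the rest quantile normalized, each rank taking its median, before log2. That median was taken over all 10 samples, while the methods can be read as taking it within each condition, a form that was run as an alternative. Probes rather than genes were kept as rows, because the study's rule of 1 probe per gene picks the largest ratios, and 3633 probes carry no gene symbol. limma 3.58.1 in R 4.3.3 fitted operation with the day as a block (the day in the labels pairs the samples, although the deviations of same-day samples correlated at only 0.00148 to 0.112) and, separately, the late minus early difference, with Benjamini-Hochberg adjustment over 19976 probes at 0.05. The script was tested on simulated data. Symbols are those of the array. The 10 members and all gene lists were chosen with earlier results of these data known. From each list the text names up to 4 called probes found on all arrays, by largest change, or else the 2 brightest, and Myl7, Myl4, Bmp10, Dkk3, Nr2f1, Nr2f2, Hrc, Tmem38a, Slc8a2, Csf1r, Tnni3, Ckm, Tpm1 and the second probes of named genes were chosen after their values were seen. The alternatives were other normalizations, 50 added before log2, other filters on dim probes, 1 row per gene, no day block, limma's trend and robust options, single days left out, and centring on cardiomyocyte markers. Python 3.11.15 made the tables.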

Additional observations from a re-analysis of the deposited data

Results flagged for a closer look

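Values far from the rest of their group were looked for in each operation for the 14 member probes, 28 groups of 5 samples, in which about 1 in 20 would be marked by chance, or 1.4. There were 3. Pln in sham day 14, at log2 14.02, lay below the nearest sham value of 14.69. The first Trdn probe, PH_mM_0013181, in sham day 14, at 11.89, lay above the nearest of 11.59, on the side away from the TAB values. Slc8a1 in sham day 5, at 6.13, lay below the nearest of 6.46 on a probe not above background. Of the 3, 2 come from the sham day 14 sample, which also held the highest sham values of Sln, Myl7, Myl4 and Nppa. Leaving out day 14 moved the mean ratio of Pln from -0.36 to -0.56 and that of the Trdn probe from -0.93 to -0.91.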

How the results depend on the processing

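The day, which the labels share between operations, was the block in the reported fit. Without that replicate block 2016 probes were called higher and 1859 lower, the same 2 member genes had a call, and 2 probes differed between late and early days. With the samples of a single day left out, calls higher ranged from 13 (without day 3) to 1455 (without day 28), calls lower from 0 to 1318, and member genes and member probes called from 0 to 1 each (the cause was not tested). Setting probes below 1 to 1 instead of removing them gave 264 higher and 107 lower with 0 member genes and 0 member probes called (6658 at an unadjusted p under 0.05), the cause of which was not tested. With 50 added before log2 there were 2365 higher, 2525 lower, 4 member genes, 6 member probes and 9 late against early calls. With trend and robust on there were 2290, 2436, 4, 6 and 35. Leaving out the lowest tertile left 13317 probes, of which 2040 (15.3%) were called higher and 2325 (17.5%) lower, with 5 member probes and 3 late against early calls, and probes found on all arrays alone left 12654, with 2032 (16.1%) higher, 2345 (18.5%) lower, 5 and 9. The larger counts of member probes thus go with larger shares over all probes. Quantile normalization within each operation, the other reading of the methods, gave 1856 higher and 979 lower, and of the Atp2a2 probes mMR030883 then passed (adjusted p = 0.0418) and PH_mM_0007334 did not (0.0594). Median scaling only gave 884 lower and centring on cardiomyocyte markers 811. Single-day member calls were 7 at a log2 ratio of at least 1 (16.1% of all probes and days), 4 of them of Fkbp1b, which is not above background.

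The direction of the TAB effect held for the members called and for Pln, Sln, Ryr2, Casq2, Jph2, Cacna1c and PH_mM_0002445 in every setting run. Fkbp1b also stayed below 0 in the settings that kept it, but it was above background on no array and no direction is read from it. It turned for probes close to 0. Trdn PH_mM_0013335 was 0.03 with median scaling only and within each operation and ranged from -0.11 to 0.02 with a day left out, and Slc8a1 was 0.02, 0.00 and, centred on cardiomyocyte markers, 0.02, and ranged from -0.19 to 0.07. The late minus early difference turned to -0.01 for Atp2a2 and -0.00 for Trdn with the mean of the probes of a gene, to 0.01 for Casq2 when centred, and with a day left out ranged from -0.20 to 0.08 for Casq2 and from -0.03 to 0.37 for Trdn PH_mM_0013181. It also turned with a day left out for Ryr2 (-0.01 to 0.33), Cacna1c (-0.73 to 0.28), PH_mM_0002445 (-0.41 to 0.17) and PH_mM_0013335 (-0.28 to 0.17, and 0.01 when centred). Day 14 decided both differences between partners. Without it Pln minus Atp2a2 turned from 0.06 to -0.13, against 0.10 to 0.12 without any other day, and Sln minus Atp2a2 went from -0.49 to -0.01, against -0.71 to -0.52. Signal over background limits Slc8a1 and Fkbp1b, on which these arrays give no measured change.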
